A study of Mus musculus with 7 samples.

Results

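Bardet-Biedl syndrome is an inherited ciliopathy in which retinal degeneration is a cardinal sign, and 10 mouse genes of the syndrome were followed here in a time course of histone H3 lysine 18 lactylation (H3K18La). The genes were Bbs1, Bbs2, Bbs4, Bbs5, Bbs7, Bbs9, Bbs10, Bbs12, Ttc8 and Arl6, and their members were all peaks of the quantified peak table that carry one of these symbols. This gave 50 peaks out of 108253, and each of the 10 genes had at least 1. The mark was mapped by CUT&Tag, in which an antibody directs a tagging enzyme to chromatin, in dissociated whole retina of wild-type C57Bl/6J mice at postnatal day 4 (P4, n = 2 libraries), P10 (n = 2) and P28 (n = 3). No animal carried a transgene or received a treatment, and age was the only factor compared. The P28 replicate 1 library was the only one of batch 2, so leaving it out gives the comparison within batch 1. The submitters call the libraries biological replicates without giving the number of animals in each, so the spread between libraries is the only error measured.

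The BBSome is a coat-like protein complex that carries membrane proteins into and out of cilia. Bbs1, Bbs2, Bbs4, Bbs5, Bbs7, Bbs9 and Ttc8 encode subunits of it, the small GTPase Arl6 recruits it to membranes, and the chaperonin-like proteins Bbs10 and Bbs12 help to assemble its core. The outer segment of a photoreceptor is a modified cilium, and loss of the complex lets foreign proteins collect there, after which the cells degenerate. Outer segments are not yet built at P4, are growing at P10 and are mature at P28. H3K18La is a histone acylation derived from lactate that is found at active promoters and enhancers, and the study asked how its occupancy changes as the retina matures.

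The values are RPKM, the reads in a peak per kilobase of its width, scaled by the normalised library size, so levels can be compared between peaks of different length. The depth differed strongly between ages. The reads in peaks numbered 295383 and 358971 at P4, 199970 and 660740 at P10, and 1615969 to 8274373 at P28, and the peaks of the 10 genes held 84 to 307 reads in a P4 or P10 library and 1060 to 5666 in a P28 library. Reads in peaks made up 16.3% and 17.6% of the normalised library size at P4, 36.1% and 52.1% at P10, and 42.4% to 57.1% at P28. The median change over all 108253 peaks was not 0, but 0.68 on the log2(RPKM + 1) scale for P28 against P4, 0.23 for P10 against P4 and 0.39 for P28 against P10. Over 1 promoter peak for each of 9956 protein-coding genes it was 1.37, 0.57 and 0.73, and the changes below are to be read against these medians. Since the tissue is a mixture, more cells of a type and more mark per cell cannot be told apart.

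Of the 50 peaks, 10 were annotated as promoter, 31 as intron, 4 as exon, 2 as 3′ UTR and 3 as distal intergenic. A promoter peak was present for 8 of the 10 genes, with a second promoter peak for Bbs9 and for Arl6. At 7 of the 8 nearest promoter peaks H3K18La rose from P4 to P28, by 2.28 to 2.87 on the log2 scale (limma, adjusted p under 0.01), and none was called lower. Over all promoters of protein-coding genes 34.6% were called higher in this comparison. For Arl6 the peak was picked between 2 by mean level, which used the P28 values, and with its upstream peak the count was 6. The Bbs9 peak was also picked between 2 by mean level, and the peak not picked was not called. The median change of the 8 promoters was 2.44, against 1.37 over all promoters. The lower 95% bounds of the 7 changes, which were selected by their call, lay above 1.37, at 1.48 to 2.32. That of Bbs10, which was not called, was 0.21. From P4 to P10, 3 of the 8 promoters rose (Bbs4, Bbs7 and Ttc8), where 13% of all promoters did, with a median of 1.62 against 0.57. From P10 to P28 none of the 8 was called by limma, 3 had an unadjusted p under 0.05 (39.7% of all promoters did), and 0.00185% of all peaks (2 of 108253) were called in either direction. Every P28 library lay above both P4 libraries at 8 of 8 promoters, as it did at 80.4% of all promoters. Both P10 libraries lay above both P4 libraries at 7 of 8 (47.2% of all promoters), and every P28 library above both P10 libraries at 5 of 8 (54.6%).

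**Figure D1:**
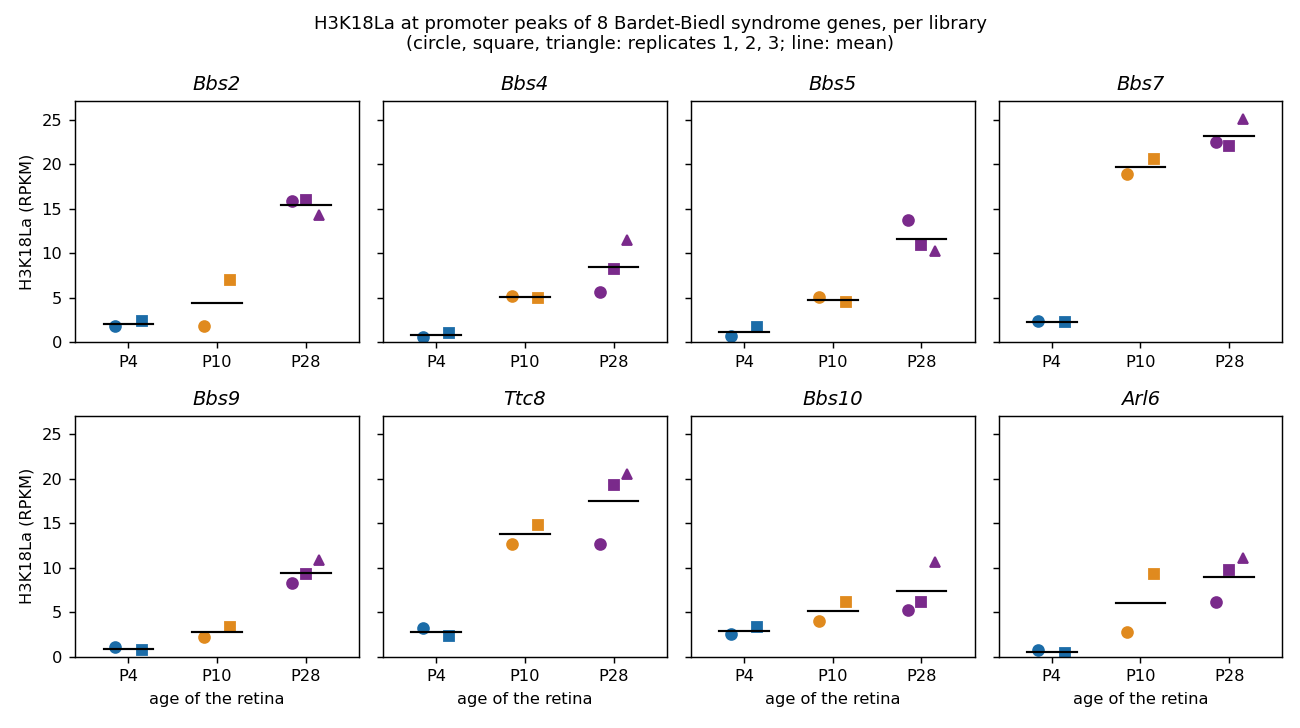
H3K18La level (RPKM, vertical axis, linear) in each library at the nearest promoter peak of 8 genes, by age (horizontal axis); symbols are replicates and lines are means. The P4 libraries sit between 0.468 and 3.35 RPKM in all 8 panels, and only Bbs7 and Ttc8 exceed 10 RPKM in both P10 libraries.

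These P4 values rest on few reads, from 1 to 9 in a library, and the size of each rise is correspondingly uncertain. Scaled to the reads in peaks of each library, which removes the difference in the share of reads in peaks, 3 of the 8 promoters remained called from P4 to P28 (Bbs7, Bbs9 and Arl6), where 8.09% of all promoters were, and the median change of the 8 was 1.44 against 0.32. Without P4 replicate 1 the calls were 4 (Bbs5, Bbs7, Bbs9 and Ttc8) and without P4 replicate 2 they were 3 (Bbs5, Bbs7 and Bbs9). Within batch 1, without P28 replicate 1, 6 of the 8 were called, all but Bbs10 and Bbs2, whose change was 2.41 there (limma adjusted p = 0.0134) against 2.43 with all libraries. Without P28 replicate 2 or replicate 3 the calls of Bbs2 and Arl6 were lost. The changes were then 2.40 and 2.48 for Bbs2, and 2.55 and 2.47 for Arl6 against 2.62 with all libraries. Over the 16 alternatives, Bbs7 and Bbs9 were called in all 16, Bbs5 in 15, Ttc8 in 14, Bbs4 in 13, Arl6 in 12 and Bbs2 in 10. From P4 to P10 only Bbs7 was called after scaling to reads in peaks (3.28% of all promoters), quantile normalisation (3.17%) or library weights.

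Bbs7 encodes a subunit of the BBSome core that assembles first with Bbs2 and Bbs9, and its promoter (chromosome 3, 36612479 to 36613820, GRCm38, minus strand) carried the highest promoter level of the 10 genes at P10 and P28. It measured 2.37 and 2.22 RPKM at P4, 18.8 and 20.6 at P10, and 22.5, 22.0 and 25.1 at P28. Every P10 and P28 library was far above the P4 libraries, the P28 libraries were slightly above the P10 libraries, and the P10 mean was 84.9% of the P28 mean. The change from P4 was 2.65 (SE 0.27, limma adjusted p = 0.000478) at P10 and 2.87 (SE 0.25, limma adjusted p = 0.000126) at P28. The reads pooled over libraries, 12 at P4 and 791 at P28, gave a ratio of 9.88 with an exact 95% counting interval of 5.62 to 19.2. From P10 to P28 the change was 0.22 (95% interval -0.33 to 0.78, limma adjusted p = 0.553), and its sign turned under median centring, to -0.048. Bbs7 ranked at the 68.7th percentile of all promoter levels at P4, the 97.9th at P10 and the 97.5th at P28, and it was called from P4 to P10 in all 16 alternatives as well.

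Ttc8, the subunit also known as BBS8, had the next highest promoter level at P10 and P28 (chromosome 12, 98919975 to 98921252, plus strand). Its promoter measured 3.20 and 2.33 RPKM at P4, 12.7 and 14.8 at P10, and 12.7, 19.3 and 20.5 at P28. The P4 libraries were again apart from the rest, but P28 replicate 1 lay at the level of the lower P10 library, so these ages overlapped. The change was 1.98 (SE 0.33, limma adjusted p = 0.00245) from P4 to P10 and 2.28 (SE 0.30, limma adjusted p = 0.000506) from P4 to P28, with a pooled ratio of 6.58 (3.89 to 12.1) on 14 reads at P4. The call at P10 was lost in 5 of the 16 alternatives. At P10 the level had reached 78.5% of the P28 mean.

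Bbs4 encodes a subunit of helical repeats that binds the centriolar satellite protein Pcm1. Its promoter (chromosome 9, 59352147 to 59353887, minus strand) measured 0.522 and 1.03 RPKM at P4, 5.18 and 4.98 at P10, and 5.58, 8.23 and 11.5 at P28. No age overlapped another. The changes were 1.79 (SE 0.42, limma adjusted p = 0.00899) from P4 to P10 and 2.38 (SE 0.38, limma adjusted p = 0.00121) from P4 to P28. The call at P10 was kept in 3 of the 16 alternatives and lost in 13, with an adjusted p of up to 0.0644 there. The ratio of pooled reads from P4 to P28 was 11.6 (4.91 to 35.8), on 5 reads at P4.

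At Bbs2, Bbs9 and Bbs5 the P10 mean stood at 28.2% to 41.1% of the P28 mean, and at the other 5 promoters at 60.2% to 84.9%. The difference in timing between genes was not tested. Bbs2, which with Bbs7 and Bbs9 forms the core of the complex, measured 1.77 and 2.33 RPKM at P4, 1.76 and 6.92 at P10, and 15.9, 15.9 and 14.3 at P28 (chromosome 8, 94097947 to 94098972, minus strand). P10 replicate 1 lay at the level of the lower P4 library and both P10 libraries were below every P28 library. The change was 0.62 (SE 0.47, limma adjusted p = 0.342) from P4 to P10, 1.81 (SE 0.43, limma adjusted p = 0.0265) from P10 to P28 and 2.43 (SE 0.43, limma adjusted p = 0.00191) from P4 to P28. The P10 mean was 28.2% of the P28 mean, but 11.5% in replicate 1, which rests on 1 read, and 45.0% in replicate 2. Without P10 replicate 2 the change from P4 to P10 was -0.14.

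Bbs9, a structural subunit of that core, measured 1.10 and 0.722 RPKM at P4, 2.18 and 3.34 at P10, and 8.25, 9.29 and 10.9 at P28 at its nearest promoter (chromosome 9, 22475263 to 22476916, plus strand). The ages did not overlap. The change was 0.97 (SE 0.38, limma adjusted p = 0.0778) from P4 to P10, 1.49 (SE 0.35, limma adjusted p = 0.0265) from P10 to P28 and 2.45 (SE 0.35, limma adjusted p = 0.000711) from P4 to P28, with a pooled ratio of 10.1 (4.62 to 27.8) over the whole interval. Without P10 replicate 2, Bbs2 and Bbs9 were both called from P10 to P28. A second promoter peak of Bbs9, over an internal start (22511410 to 22512511), was lower, at 0.412 and 0.541, 0 and 1.43, and 4.29, 3.74 and 3.45 RPKM at the 3 ages, and was not called from P4 to P28 (1.71, limma adjusted p = 0.0191). Both peaks cover an annotated start, so the first was followed for its higher mean level over all libraries. Its mean was the higher of the 2 at each age.

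Bbs5, a subunit that binds phosphoinositides, measured 0.642 and 1.69 RPKM at P4, 5.10 and 4.45 at P10, and 13.7, 10.9 and 10.2 at P28 (chromosome 2, 69646829 to 69647536, plus strand). The 3 ages were separate, and P10 stood at 41.1% of the P28 mean. The change from P4 to P28 was 2.58 (SE 0.34, limma adjusted p = 0.000516) and the smaller changes to P10 (1.46, limma adjusted p = 0.0144) and from P10 to P28 (1.12, limma adjusted p = 0.0574) were not called. P4 held 3 reads in all here, and the pooled ratio of 10.2 had an interval of 3.45 to 50.1.

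**Figure D2:**
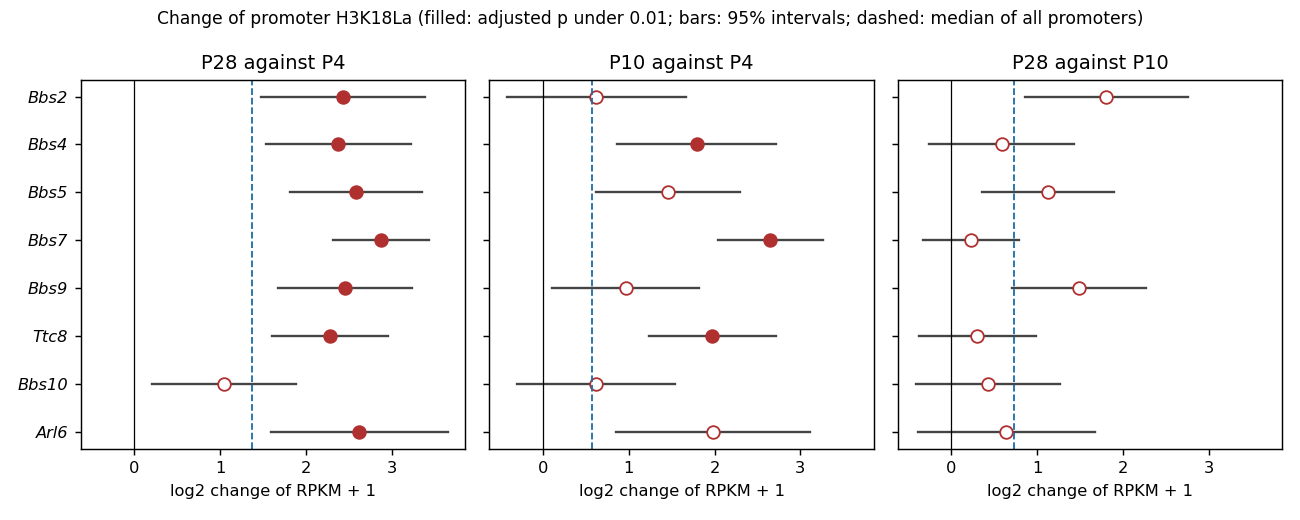
Change of H3K18La at the nearest promoter peak of 8 genes (horizontal axis, difference of log2(RPKM + 1)) with 95% intervals from the limma fit, in the 3 comparisons of ages; filled points have an adjusted p under 0.01 and the dashed line is the median of all promoters. The 7 filled points of P28 against P4 lie at 2.28 to 2.87, those of P10 against P4 are Bbs4, Bbs7 and Ttc8, and P28 against P10 has none.

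Bbs1, which encodes the subunit that contacts Arl6, had no promoter peak. None of its 3 coding transcripts started in a peak, and the nearest peak of any gene lay 16251 bases from its outermost start. That peak, at the 3′ end of the gene itself (chromosome 19, 4888948 to 4890377, annotated as 3′ UTR, minus strand), measured 0.318 and 2.50 RPKM at P4, 5.05 and 2.76 at P10, and 6.24, 9.11 and 10.3 at P28. It rose from P4 to P28 by 2.13 (SE 0.47, limma adjusted p = 0.00616). The P4 libraries differed widely, on 1 and 6 reads, and the call was lost in 10 of 16 alternatives. The absence of a peak says that no consensus peak was called there and gives no level.

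Sequence around the start sites was read from RefSeq windows of 300 bases (250 before and 50 after the start, GRCm38), which were found for all 10 genes. The ciliary RFX factors bind the X-box, and GTTGCC, an arm of it, was searched on both strands along with GGGCGG (the GC box), CCAAT (the CCAAT box), TAATCC (bound by CRX), CACGTG (an E-box) and GCGCATGC (the NRF1 core). The X-box arm was present in 3 of the 10 genes (Bbs1, Bbs5 and Bbs7), against 12.5% of all 32851 windows and 12.6% of the 21263 protein-coding ones. The windows of these 3 genes are given because they span the range of the data, from no peak over the start (Bbs1) to the highest promoter level (Bbs7). They run 5′ to 3′ on the strand of the gene, with every match to a searched motif in capitals.
Bbs1 chr19:4906578-4906877 (minus strand): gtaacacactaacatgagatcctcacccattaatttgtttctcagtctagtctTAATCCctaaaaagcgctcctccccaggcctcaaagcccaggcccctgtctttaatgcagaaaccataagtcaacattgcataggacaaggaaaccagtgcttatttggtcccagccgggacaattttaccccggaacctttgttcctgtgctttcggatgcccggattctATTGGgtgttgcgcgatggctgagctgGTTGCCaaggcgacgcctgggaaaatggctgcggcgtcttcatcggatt
Bbs5 chr2:69646921-69647220 (plus strand): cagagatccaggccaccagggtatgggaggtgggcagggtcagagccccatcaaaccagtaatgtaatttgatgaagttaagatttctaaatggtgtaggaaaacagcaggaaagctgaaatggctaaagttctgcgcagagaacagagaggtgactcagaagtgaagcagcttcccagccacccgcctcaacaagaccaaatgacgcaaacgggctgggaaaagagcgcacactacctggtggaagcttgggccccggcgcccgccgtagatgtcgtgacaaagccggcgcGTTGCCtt
Bbs7 chr3:36613340-36613639 (minus strand): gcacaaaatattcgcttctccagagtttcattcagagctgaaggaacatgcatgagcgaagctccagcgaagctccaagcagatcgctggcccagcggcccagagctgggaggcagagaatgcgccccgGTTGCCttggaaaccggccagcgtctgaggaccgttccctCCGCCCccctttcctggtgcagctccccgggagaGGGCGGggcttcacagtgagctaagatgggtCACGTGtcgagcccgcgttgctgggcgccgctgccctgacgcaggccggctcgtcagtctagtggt
Counted from the start, where 1 is the first transcribed base, the X-box arm began at base 2 in Bbs1, 43 in Bbs5 and -121 in Bbs7. Bbs1 also held a TAATCC match at -197 and a CCAAT match at -26, and Bbs7 GC boxes at -81 and -47 and an E-box at -16. Over all members the GC box was present in 6 of 10 genes (46.2% of protein-coding windows, and 66.8% of those that overlap a peak), CCAAT in 4 (38.2%), TAATCC in 1 (6.4%), the E-box in 1 (7.8%) and the NRF1 core in none (3.5%). The Bbs1 window had the lowest GC content of the 10 genes, 50.3%, where the median was 56.3% over protein-coding windows and 62.0% over those in a peak. The windows of Arl6 lie over its upstream starts and not over the internal start of the promoter peak followed here. The windows of Bbs2 and Bbs4 held no match, and a match is given only as a description of the letters.

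Of the chaperonin-like members, Bbs10 measured 2.55 and 3.35 RPKM at P4, 4.05 and 6.19 at P10, and 5.30, 6.21 and 10.7 at P28 at its promoter (chromosome 10, 111298180 to 111299070, plus strand). The P28 libraries were all above P4, and P28 replicate 1 lay between the P10 values. The change from P4 to P28 was 1.04 (SE 0.37, limma adjusted p = 0.0474), the only one of the 8 promoters not called and at the 35.2nd percentile of all promoters, where the other 7 ranked between the 86.6th and the 96.6th. Its sign turned when libraries were scaled to their reads in peaks (-0.24). Among the 8 nearest promoter peaks, Bbs10 ranked highest at P4, at the 81.3rd percentile of levels, and lowest at P28, at the 67.1st. A distal peak 18.8 kb beyond the start stayed low in all libraries, at 0 to 3.64 RPKM, and was not called.

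Bbs12 had no promoter peak under its own symbol, although its start lies in a peak. The peak (chromosome 3, 37311962 to 37312933) is assigned in the table to Cetn4, a centrin gene on the opposite strand with annotated starts 108, 134 and 154 bases from that of Bbs12, and the processed transcript Gm43439 starts in it as well, so reads there cannot be divided between the genes. This shared peak measured 4.21 and 4.30 RPKM at P4, 7.43 and 9.73 at P10, and 17.5, 16.6 and 18.7 at P28, with no overlap between ages. It rose by 1.82 (SE 0.27, limma adjusted p = 0.000798) from P4 to P28, a call lost in 2 of the 16 alternatives, whereas 0.86 (SE 0.29, limma adjusted p = 0.0451) from P4 to P10 was not called. The window over the shared start is shown because it holds annotated starts of both genes, with a GC box at -86 and a CCAAT match at -50 in capitals.
Bbs12 chr3:37312304-37312603 (plus strand): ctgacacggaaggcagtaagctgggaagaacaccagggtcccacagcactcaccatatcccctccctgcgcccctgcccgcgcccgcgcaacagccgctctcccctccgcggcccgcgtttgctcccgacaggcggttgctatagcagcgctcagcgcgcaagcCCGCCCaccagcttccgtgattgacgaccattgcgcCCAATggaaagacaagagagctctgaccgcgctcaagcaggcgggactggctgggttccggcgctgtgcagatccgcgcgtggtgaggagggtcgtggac
Inside the single intron of Bbs12, a peak 842 bases from the start measured 3.40 and 1.12 RPKM at P4, 0 in both P10 libraries and 6.88, 6.10 and 7.44 at P28. It was not called in any comparison (P28 against P10 gave 2.96, limma adjusted p = 0.0113), and its P10 zeros stand on libraries with a median of 1 and 2 reads per peak. The other intronic peak, 5529 bases from the start, was called from P4 to P28 (2.12, SE 0.48, limma adjusted p = 0.00692) with 0 and 1.36 RPKM at P4 and 4.77, 6.01 and 6.28 at P28, a call lost in 11 of 16 alternatives.

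Arl6, the GTPase known in patients as BBS3, had a promoter peak at each of its alternative starts, and they differed. The nearest promoter peak by the rule used, with the higher mean level of the 2, covers an internal start (chromosome 16, 59631691 to 59632966, minus strand). It measured 0.712 and 0.468 RPKM at P4, 2.83 and 9.27 at P10, and 6.17, 9.73 and 11.1 at P28. The P10 libraries lay on either side of the lowest P28 library, at 31.4% and 103% of the P28 mean. The change from P4 to P28 was 2.62 (SE 0.46, limma adjusted p = 0.00194) on 3 reads at P4, with a pooled ratio of 15.7 (5.32 to 76.5), and the change from P4 to P10 was 1.98 (SE 0.51, limma adjusted p = 0.0135). The upstream peak (59638258 to 59639658) covers the outermost starts of Arl6 and the start of the long non-coding RNA 4930547E14Rik. It measured 4.22 and 2.56 RPKM at P4, 10.3 and 3.94 at P10, and 3.93, 5.48 and 6.04 at P28, where every age overlapped the next. Its change from P4 to P28 was 0.50 (95% interval -0.44 to 1.44, limma adjusted p = 0.354), with a sign that turned under reads-in-peaks scaling, median centring and quantile normalisation. By the mean of each age, the internal peak lay below the upstream peak at P4 and at P10 and above it only at P28. The P28 values therefore decided which peak was followed, and the change of the internal peak from P4 to P28 is not independent of that choice. The difference between the 2 peaks of Arl6 was not tested. With the upstream peak in place of the internal one, 6 of the 8 promoters were called from P4 to P28.

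Beyond the promoters, 40 peaks of the 10 genes lay in gene bodies or intergenic sequence. Of these 18 were called higher from P4 to P28 and none lower, and with the promoters 25 of the 50 were called higher, against 18.9% of all peaks. From P4 to P10, 10 of the 40 and 13 of the 50 were called higher and none lower, against 11.4% of all peaks higher, and of these 13 peaks 11 were also called from P4 to P28. At 9 of the 50 peaks, 5 of them in introns of Bbs9, both P10 libraries lay below both P4 libraries, as at 20.9% of all peaks. No P10 library held more than 1 read at these 9 peaks, and the changes were -1.61 to -0.72 (limma adjusted p from 0.0142 to 0.321). Of the 18 calls from P4 to P28 outside promoters, 3 were kept in all 16 alternatives (Bbs2 at 11.8 and 24.8 kb and Ttc8 at 10.7 kb), and each of the 10 calls from P4 to P10 was lost in 2 to 13. From P10 to P28 limma called none of the 50, and 20 had an unadjusted p under 0.05, against 32.5% of all peaks. At 35 of the 50 peaks each P4 library held at most 3 reads, and 18 of these were among the 25 called. Of the 25, 7 held no read at P4, as did 2 of the 13 called from P4 to P10. Such a peak can be in the table only through a later age, so a rise from P4 was built into its selection. The p-values and folds of these peaks are therefore no independent evidence of a rise. The 25 calls became 8 without P4 replicate 1 or replicate 2, 14 without P28 replicate 2 or replicate 3, and 36 without P10 replicate 1 or replicate 2. The 13 calls from P4 to P10 became 2 and 1 without P4 replicates 1 and 2, and 8, 5 and 7 without P28 replicates 1, 2 and 3. The shares of all peaks given so far belong to the fit of all 7 libraries and not to those with a library left out. Scaled to reads in peaks, the calls were 13 higher and 2 lower from P4 to P28, against 7.17% and 15% of all peaks. From P4 to P10 they were 5 higher and 7 lower, against 4.35% and 15.8%.

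**Figure D3:**
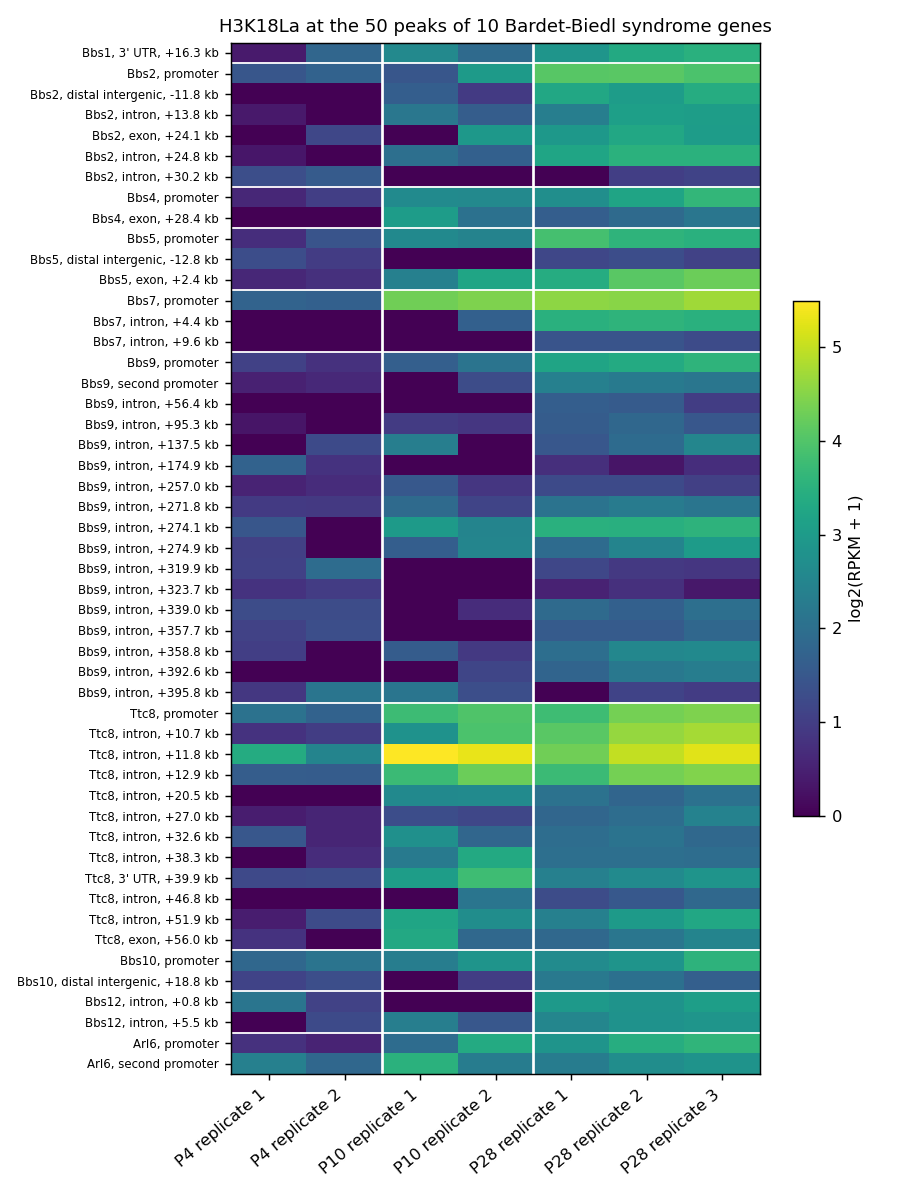
H3K18La at all 50 peaks (rows, grouped by gene, with the annotation class and the distance from the nearest annotated start) in the 7 libraries (columns), as log2(RPKM + 1) in colour. The intron 1 peaks of Ttc8 and the promoter of Bbs7 are the brightest rows, and 35 rows hold at most 3 reads in each P4 library.

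Ttc8 had 12 peaks over a gene of 62.7 kb, and the highest values of any member lay inside its first intron rather than at its promoter. The peak 11.8 kb from the start (98932324 to 98933101) measured 9.34 and 4.60 RPKM at P4, 44.1 and 38.5 at P10, and 18.9, 31.0 and 37.1 at P28. Here both P10 libraries exceeded every P28 library. The change was 2.47 (SE 0.39, limma adjusted p = 0.00184) from P4 to P10, 1.93 (SE 0.35, limma adjusted p = 0.00235) from P4 to P28 and -0.55 (SE 0.35, limma adjusted p = 0.308) from P10 to P28. The call at P10 was lost in 4 of the 16 alternatives and that at P28 in 6, with limma adjusted p of up to 0.332 and 0.604. Its neighbours at 10.7 and 12.9 kb were called in both comparisons with P4 as well. The former continued to 16.0, 23.7 and 25.9 RPKM at P28 from 5.95 and 14.3 at P10, and the latter held 12.4 and 18.1 RPKM at P10 and 12.3, 19.4 and 20.8 at P28.

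Further into Ttc8, the peaks at 20.5 kb (intron 2) and 51.9 kb (intron 10) were called in both comparisons with P4, and those at 38.3 kb (intron 8) and 39.9 kb (annotated as 3′ UTR) from P4 to P10 only. The 39.9 kb peak measured 1.31 and 1.38 RPKM at P4, 7.29 and 12.7 at P10, and 4.24, 5.21 and 6.18 at P28, and the 38.3 kb peak 0 and 0.622, 3.77 and 9.04, and 3.01, 3.01 and 2.88. At 4 of the 12 peaks of Ttc8 (11.8, 20.5, 38.3 and 39.9 kb) both P10 libraries lay above every P28 library, as at 14.9% of all peaks. At 7 of the 12 the P10 mean was above the P28 mean, against 4 of the 38 peaks of the other genes and 36.3% of all peaks. At those 4 peaks limma gave changes of -0.55 to -0.80 with adjusted p from 0.154 to 0.308, and none of the 12 was called from P10 to P28. The calls from P4 to P10 were lost in 10 of 16 alternatives at 38.3 kb and at 51.9 kb, and those from P4 to P28 in 9 at 20.5 kb and 8 at 51.9 kb. The P10 reads at the 4 peaks above P28 numbered 10 to 57 over both libraries.

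**Figure D4:**
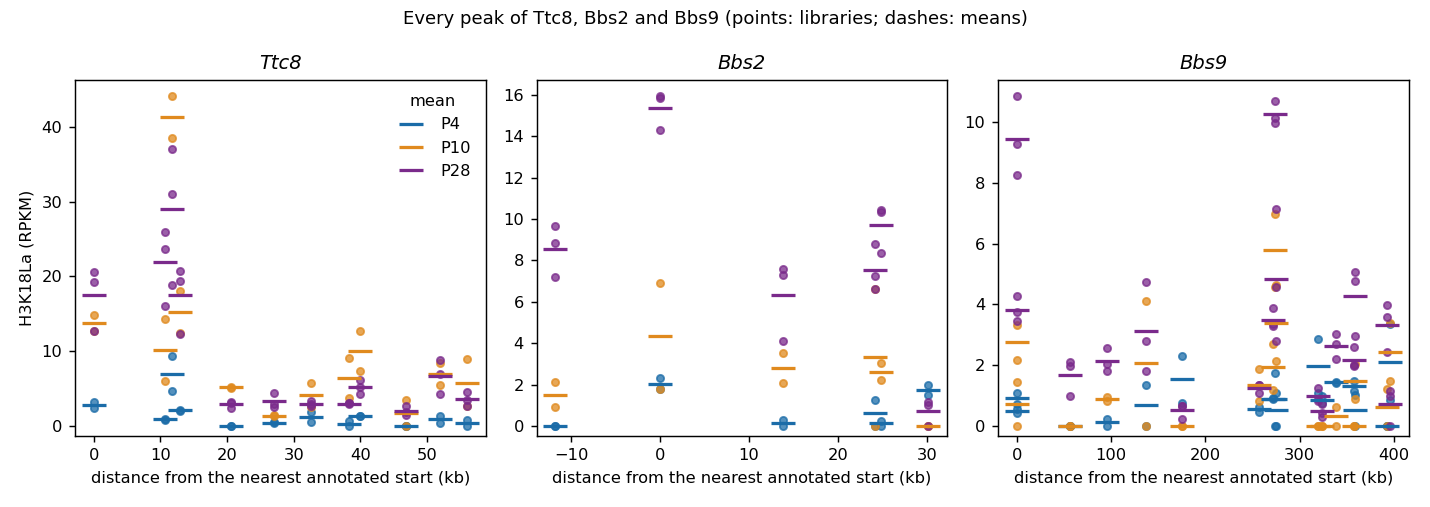
H3K18La level (RPKM, linear) of every peak of Ttc8, Bbs2 and Bbs9 against its distance from the nearest annotated start in kb; points are libraries, dashes are the means of each age, and the vertical scale differs between panels. In Ttc8 the peak at 11.8 kb is highest at P10, whereas the promoter is the highest peak of Bbs2 at P28 and a peak at 274 kb reaches the level of the Bbs9 promoter.

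Bbs2 had 6 peaks, 4 of them called from P4 to P28. A distal peak 11.8 kb upstream (94110708 to 94111567) held no read in either P4 library, measured 2.10 and 0.917 RPKM at P10 (1 read each) and rose to 8.85, 7.22 and 9.64 at P28 (3.25, SE 0.41, limma adjusted p = 0.000398), at least 4.67-fold higher than a floor of 3 reads in each P4 library. With no P4 read this peak could be in the table only through a later age, so its rise was built into the selection. The peak in intron 15, 24.8 kb from the start, measured 0.254 and 0 RPKM at P4, 3.03 and 2.21 at P10, and 8.37, 10.3 and 10.4 at P28. It rose by 1.68 (limma adjusted p = 0.00986, lost in 13 of 16 alternatives) to P10 and by 3.25 (limma adjusted p = 0.000256) to P28, and the peak in intron 7 by 2.65 (limma adjusted p = 0.00132) to P28. A short peak in intron 16 went the other way, with 1 read in each P4 library, none at P10 and 0 to 5 at P28, and was not called (-0.74, limma adjusted p = 0.123).

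Bbs9 extends over 412.6 kb and carried 17 peaks, of which 5 were called from P4 to P28 and none from P4 to P10. The highest of its intronic peaks, in intron 18 at 274 kb (22749804 to 22750320), measured 1.76 and 0 RPKM at P4, 6.98 and 4.57 at P10, and 10.1, 9.99 and 10.7 at P28, which is within the range of the promoter at P28. It rose by 2.76 (SE 0.44, limma adjusted p = 0.00121). The other called intronic peaks, at 56.4, 95.3 and 393 kb, reached 0.988 to 3.99 RPKM at P28 from 0 to 0.236 at P4, with changes of 1.40, 1.49 and 2.10, and the last 2 of these calls were lost in 12 and 9 of the 16 alternatives. At 13 of the 17 peaks each P4 library held at most 3 reads. As the mean over libraries, the promoter of Bbs9 exceeded the average of its 15 intronic peaks by 0.14 at P4 and 1.70 at P28 on the log2 scale. This difference of 1.56 had an exact permutation p of 0.2 (two-sided), the smallest that 3 against 2 libraries allow. For the 6 other genes with both kinds of peak the rise of that contrast was 0.25 to 0.94, with an exact permutation p of 0.2 to 0.8, and for Bbs2, Bbs4, Bbs7 and Ttc8 its sign turned with a pseudocount of 0.1.

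The remaining called peaks were in shorter genes. In Bbs5 an exon peak 2.41 kb from the start (69649584 to 69650435) measured 0.533 and 0.7 RPKM at P4, 4.24 and 8.33 at P10, and 9.55, 16.1 and 18.2 at P28. This put it above the Bbs5 promoter in P28 replicates 2 and 3 but not in replicate 1, and it rose by 2.11 (SE 0.43, limma adjusted p = 0.00499, lost in 8 of 16 alternatives) to P10 and 3.23 (SE 0.39, limma adjusted p = 0.000335) to P28. In Bbs7 an intron 4 peak held no read at P4, 0 and 2.21 RPKM at P10, and 10.3, 10.8 and 10.2 at P28 (3.51, SE 0.51, limma adjusted p = 0.000774). Against a floor of 3 reads in each P4 library the P28 mean was at least 2.36-fold higher, and the call was lost in 3 of the 16 alternatives. The intron 7 peak of Bbs7 was called as well, at 1.39 to 1.69 RPKM in the P28 libraries and no read in the other 4. Both of these Bbs7 peaks lacked P4 reads, so they too could enter the table only through a later age. An exon 13 peak of Bbs4 was called at both later ages on 1 read in each P10 library and 2 to 11 in the P28 libraries. These last 2 calls, and that of Bbs9 at 56.4 kb, turned sign when P4 was set to 3 reads per library.

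Other genes of the pathway were taken from fixed lists of further Bardet-Biedl loci, partners in ciliary traffic, and the CCT chaperonin that folds BBS proteins together with Mkks, Bbs10 and Bbs12. Promoter peaks were present for 26 of the 32 genes. From P4 to P28, 9 of the 26 were called higher and none lower, where 34.6% of all promoters were called higher, and the median change was 1.45. Without P10 replicate 1, or without P10 replicate 2, 20 of the 26 were called. The count was 3 without P4 replicate 1, 1 without P4 replicate 2, and 2 without P28 replicate 2 or replicate 3. The share of 34.6% belongs to the fit of all 7 libraries and not to those with a library left out. With all libraries the counts were 5 of 10 for the further Bardet-Biedl loci, 3 of 11 for the traffic partners and 1 of 5 for the chaperonin. The medians were 1.36, 1.55 and 1.38. From P4 to P10 the counts were 2, 1 and 1, where 13% of all promoters were called higher, with medians of 0.80, 0.92 and 0.032 against 0.57, and from P10 to P28 none was called. The largest called changes were those of Unc119 (3.06, limma adjusted p = 0.000113), which carries lipidated cargo, and Arl3 (2.84, limma adjusted p = 0.000392), the GTPase that triggers its release into cilia. Next came Lztfl1 (2.40, limma adjusted p = 0.00186), a regulator of BBSome traffic also known as BBS17, and Ift172 (2.36, limma adjusted p = 0.00380), an intraflagellar transport subunit. Rp2 (2.13, limma adjusted p = 0.00241), which inactivates Arl3, followed. Unc119 measured 2.54 and 2.05 RPKM at P4, 31.8 and 29.8 at P10, and 23.7, 27.0 and 28.8 at P28, so that both P10 libraries lay above every P28 library. The smallest changes were those of Cct8 (0.045), Trim32 (0.63) and Ift74 (0.80). Bbip1, which encodes the small remaining subunit of the BBSome, had no peak.

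Promoters of marker genes of retinal cell types were followed over the same ages. All 6 photoreceptor promoters listed (Crx, Nrl, Nr2e3, Gnat1, Pde6b and Rcvrn) were called higher at both later ages, where 34.6% of all promoters were at P28 and 13% at P10. Their summed level was 16.6 to 17.3 RPKM at P4, 123 to 135 at P10, and 90.9 to 129 at P28. Of the other lists, 0 of 3 progenitor promoters, 1 of 3 for Müller glia (Glul), 1 of 2 for bipolar cells (Otx2, which photoreceptors also express), and 0 of 1 each for pigment epithelium, endothelium and lens were called from P4 to P28, and no microglial gene of the 3 had a promoter peak. The summed level of the progenitor promoters was 4.58 to 6.59 RPKM at P4, 6.80 to 10.7 at P10 and 8.18 to 8.84 at P28, and that of Müller glia 5.61 to 6.89, 13.7 to 14.8, and 15.2 to 19.9. At P28 most of the Müller sum was Glul, with means of 2.72, 5.73 and 12.6 RPKM at the 3 ages. Rlbp1 had 1.54, 4.26 and 2.32, Slc1a3 had 2.00, 4.25 and 2.42, and neither was called. The bipolar sum was 3.19 to 3.35 RPKM at P4, 8.42 to 25.1 at P10 and 22.9 to 40.8 at P28. Most of it was Otx2, with means of 2.09, 16.2 and 28.2 RPKM, whereas Grm6 had 1.18, 0.613 and 2.45 and was not called. The remaining sums, at pigment epithelium, endothelium and lens, stayed at or below 4.34 RPKM at P4 and P28 and reached at most 0.791, 7.44 and 11.5 at P10. The part of cell composition, and of the share of reads in peaks, in the rise at the Bardet-Biedl genes was not tested.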

How the data were processed

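H3K18La CUT&Tag libraries of papain-dissociated retinal cells were processed by the authors with nf-core/cutandrun on GRCm38. Per the labels and the study's methods, MACS peaks found in 2 or more replicates at an age were merged across ages, annotated with ChIPseeker 1.34.1 (promoter, 1000 bases before to 500 after a start) and quantified with csaw and edgeR 3.40.2. The labels name pA-MNase and the methods pA-Tn5. The deposited values are RPKM per peak and library. RPKM multiplied by peak width was a whole multiple of 1 read (within 0.05 reads) for 100% of values, and read numbers were recovered in this way to show depth. Exact intervals on them cover counting error only, since reads are not independent molecules.

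Because the unit is RPKM, log2(RPKM + 1) of all 108253 peaks in the 7 libraries was fitted with limma 3.58.1 (R 4.3.3, variance trend, Benjamini-Hochberg adjustment over all peaks, calls at an adjusted p under 0.01). The promoter peak of a gene was the promoter-annotated peak nearest a start, with the higher mean RPKM breaking ties. Named were all 10 members, every called non-promoter peak and each gene's highest, and of the other lists up to 5 called genes with the largest change and the 3 with the smallest. Members and lists were chosen with earlier results of these data known. The alternatives were another pseudocount (0.1), a filter on low values, other scalings, voom, library weights, a replicate block and leaving out each library. Further choices were added after seeing the data, namely the upstream Arl6 peak and P4 set to 3 reads where both libraries held no more. The fit was tested on simulated data, where it called no unchanged peak and missed part of the planted changes. The simulation held counting error alone around a mean common to all ages, without further spread between replicates or a shift over all peaks. Changes were planted only in peaks expected to hold more than 3 reads in the smallest library. It therefore cannot decide how the fit behaves at peaks with few P4 reads or with the spread seen here. Start sites came from GENCODE M21 and windows from RefSeq, both on GRCm38.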

Additional observations from a re-analysis of the deposited data

How the results depend on the processing

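Each P4 library holds a median of 2 reads per peak, so a fold from P4 is known only within its counting interval. Reads in peaks made up a lower share of the normalised library size at P4 than at the later ages. That size was recovered from the RPKM values and is not the number of reads sequenced. The number of promoters called from P4 to P28 (7) was 3 after scaling to reads in peaks and 3 to 7 on leaving out single libraries. It was 7 under a pseudocount of 0.1, the filter on mean RPKM, median centring, quantile normalisation, voom, library weights, the replicate block and P4 set to 3 reads, and the same 7 genes were called in each. Over all promoters 34.6% were called higher in the main fit, 23.4% with median centring and 17.5% with quantile normalisation. For the other settings of this list no such share is given. From P4 to P10 (3) it was 1 after scaling to reads in peaks, quantile normalisation or library weights, and 1 to 3 on leaving out libraries. From P10 to P28 (0) it was 0 to 2, with 2 without P10 replicate 2.

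Over all 50 peaks, the count from P4 to P28 (25) was 15 after scaling to reads in peaks, 16 with median centring and 8 to 36 on leaving out libraries, with 8 without P4 replicate 1 or replicate 2. From P4 to P10 (13) it was 8 with quantile normalisation, 4 with library weights and 1 to 14 on leaving out libraries. From P10 to P28 (0) it was 3 with a pseudocount of 0.1, 2 with median centring, 2 with voom, 1 with P4 set to 3 reads and 0 to 10 on leaving out libraries. For the 26 other pathway promoters the count from P4 to P28 (9) was 3 after scaling to reads in peaks and 1 to 20 on leaving out libraries. From P4 to P10 (4) it was 2 and 1 to 5, and from P10 to P28 (0) up to 5. These counts take calls in either direction, and the 25 and 13 of the main fit were all higher. Scaled to reads in peaks, the 50 peaks had 13 higher and 2 lower calls from P4 to P28. From P4 to P10 they had 5 higher and 7 lower calls under that scaling. The causes were not tested.

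Single changes turned sign as follows, and among called changes this happened only with P4 set to 3 reads. With scaling to reads in peaks these were Bbs10 from P4 to P28 (-0.24) and to P10 (-0.49), Bbs2 from P4 to P10 (-0.42), the upstream Arl6 peak (-0.79) and the Cetn4 peak from P4 to P10 (-0.32). With quantile normalisation they were Bbs10 from P4 to P10 (-0.23), the upstream Arl6 peak (-0.55) and the Cetn4 peak from P4 to P10 (-0.36), and with median centring Bbs7 from P10 to P28 (-0.048) and the upstream Arl6 peak (-0.024). Leaving out libraries gave -0.14 to 1.38 for Bbs2 from P4 to P10 and -0.073 to 1.35 for Arl6 from P10 to P28. With P4 set to 3 reads, the called exon peak of Bbs4 gave -0.97 (P28) and -0.31 (P10), the intron 7 peak of Bbs7 -0.45 and the 56.4 kb peak of Bbs9 -0.084. The excess of promoter over other peaks, P28 minus P4, was -1.07 for Bbs2, -1.52 for Bbs4, -2.11 for Bbs7, 1.43 for Bbs9 and -0.57 for Ttc8 with a pseudocount of 0.1, and for Bbs10 -0.13 to 0.58 on leaving out libraries.

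The numbers of the replicates did not pair the libraries (correlations of deviations up to 0.047). The replicate block gave 7, 2 and 0 promoters and 18, 10 and 0 peaks called from P4 to P28, P4 to P10 and P10 to P28.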
